A study of Homo sapiens with 6 samples.

Results

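Interferon-stimulated genes and the genes that sense, relay and control the interferon signal were followed in NCI-H1299 cells, a human lung carcinoma cell line, with and without overexpression of MTSS1. The genes were a list of 49 symbols, matched to 49 of the 64253 Ensembl identifiers in the deposited count table. The rule goes by gene name and uses no measured value, although the list was chosen with earlier results of these data known. The list holds 4 receptor and kinase genes, 6 transcription factor genes, 4 nucleic acid sensing genes and 35 interferon-induced effector genes. MTSS1 encodes a scaffold protein that binds membranes and actin, and the study's title concerns its effect on NF-κB, a transcription factor that acts together with IRF factors at some interferon genes.

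One group was 3 libraries of wild type H1299 cells. The other was 3 libraries of H1299 cells that carried a plasmid for mCherry-tagged MTSS1, were selected with hygromycin and were sorted by flow cytometry. Both were grown in the same serum-containing medium, and the labels name no interferon, virus or other stimulus. Cells with a control plasmid were not among the libraries, so differences due to MTSS1 cannot be told apart from those due to the tag, the plasmid, the drug or the sort. The labels also mention HEK293T cells in connection with the transfection. They do not say whether the replicates were separate cultures, and p-values then reflect only how these libraries vary.

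Type I interferons bind a receptor of IFNAR1 and IFNAR2 chains. The kinases TYK2 and JAK1 on that receptor phosphorylate STAT factors, and STAT2 and IRF9 are part of the complex that binds the interferon-stimulated response element (ISRE) in the promoters of target genes. Cytosolic RNA sensors (RIGI, IFIH1) and the DNA sensor CGAS with its adaptor STING1 start the production of interferon through IRF3 and IRF7. Unstimulated tumour cell lines often keep a low, tonic level of the target genes.

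To show what sets these promoters apart, the letters of 3 motifs were searched in the 250 bases before each RefSeq start site (GRCh38.p14), on both strands. The ISRE core was taken as GAAA, any 2 bases and GAAA again, or TTTC, any 2 bases and TTTC on the other strand. Of 37 listed genes with a promoter entry, 20 (54.1%) held it, against 3.71% of 27305 genes. The gamma-activated site, TTCNNNGAA, stood before 10 of the 37 (27.0%, against 8.09% of all genes) and the κB letters, GGG, any 2 bases and TTTCC, before 3 (8.11%, against 2.12%). The κB matches were before RIGI, IFIH1 and OAS3. Some genes have several start sites, and a gene counted if any of them held the letters. In MX1, BST2 and IFI27 a gamma-activated site overlaps the ISRE letters. GAAA repeats spaced more closely than the ISRE core taken here were not counted as matches. Such repeats stand before RIGI, OAS1, IFI35 and start site 2 of MX1, on either strand. Letters cut by a start site, as at DTX3L, or differing in their first base, as before SAMD9L, were not counted either. A match is a description of letters and not of factor binding.

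The stretches below are shown because they carry these letters before genes whose values are described further on. Capitals mark the ISRE letters, each stretch runs 5′ to 3′ along the gene, and adjoining matches share bases.
ISG15, chr1:1013364-1013419, plus strand: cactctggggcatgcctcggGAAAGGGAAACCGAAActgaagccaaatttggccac
IFIH1, chr2:162318808-162318863, minus strand: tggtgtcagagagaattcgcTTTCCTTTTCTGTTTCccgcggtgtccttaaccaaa
HERC5, chr4:88456974-88457029, plus strand: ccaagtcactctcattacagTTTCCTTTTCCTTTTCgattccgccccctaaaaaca
SAMD9, chr7:93118086-93118135, minus strand: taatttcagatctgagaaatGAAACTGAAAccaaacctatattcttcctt
IFIT1, chr10:89392487-89392549, plus strand: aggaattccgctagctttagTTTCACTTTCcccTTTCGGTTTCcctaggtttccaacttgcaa
IFIT3, start site 2, chr10:89332415-89332464, plus strand: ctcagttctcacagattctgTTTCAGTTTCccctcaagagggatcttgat
OAS3, chr12:112938311-112938360, plus strand: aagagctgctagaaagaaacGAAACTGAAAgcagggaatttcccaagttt
MX1, start site 3, chr21:41431834-41431883, plus strand: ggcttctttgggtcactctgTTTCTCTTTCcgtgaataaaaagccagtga

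In the OAS3 stretch the κB letters follow the ISRE letters, between 130 and 121 bases before the start site. Of the IFIT genes, IFIT1, IFIT3 and IFIT5 have a promoter entry, and each carries ISRE letters in pairs. IFIT1 has them 116 to 107 and 103 to 94 bases before its start. The first IFIT3 start site and that of IFIT5 hold 2 matches each as well. SAMD9L, the gene next to SAMD9 and its paralog, has no exact match to the ISRE letters in its window of 250 bases. The window does hold aaaactgaaa, which differs from the letters searched only in its first base:
SAMD9L, chr7:93148386-93148635, minus strand: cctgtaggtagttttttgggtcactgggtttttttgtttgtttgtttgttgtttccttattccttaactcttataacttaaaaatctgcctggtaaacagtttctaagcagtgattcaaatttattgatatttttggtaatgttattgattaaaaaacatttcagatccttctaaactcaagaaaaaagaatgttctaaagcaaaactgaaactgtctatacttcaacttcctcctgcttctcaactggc

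**Figure D1:**
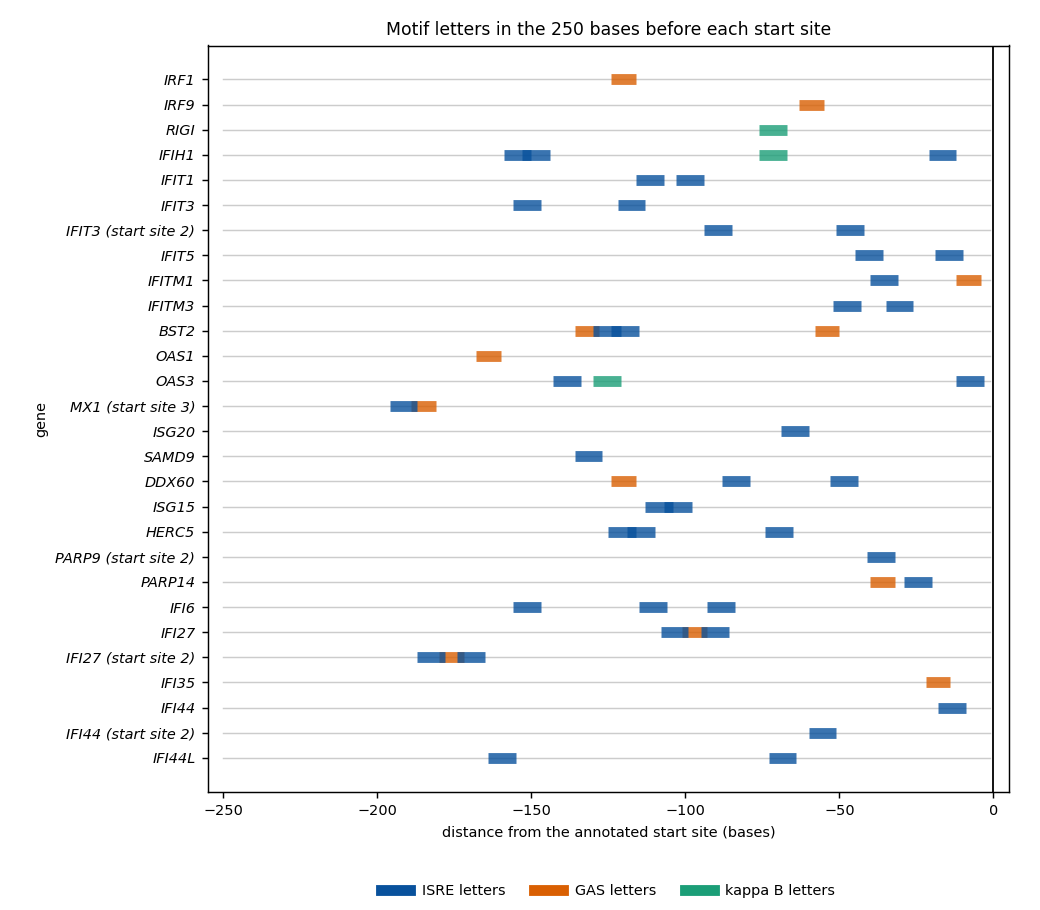
Position of motif letters in the 250 bases before the start sites of listed genes that held at least 1 match. The x axis gives the distance from the annotated start site in bases, each grey line is 1 window, and the bars mark ISRE (blue), GAS (orange) and κB (green) letters; the ISRE bars of IFIT1 lie between 116 and 94 bases before the start.

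Total counts per library ranged from 13883380 to 29479453. MTSS1 checked the labels: it stood between 18.0 and 24.3 CPM in wild type and between 544 and 568 CPM in overexpressing libraries. Replicate 1 of both groups stood apart from the other 4 libraries on the first principal component, which held 34.8% of the variance. Epithelial markers summed to 569 to 850 CPM in wild type and 254 to 466 CPM in overexpressing libraries, nearly all of it KRT8 and KRT18, and CDH1, KRT19 and EPCAM were under 1 CPM; their part in the results was not tested. Of 7 lung adenocarcinoma markers, 4 were under 1 CPM in both groups, and the surfactant genes SFTPA1 and SFTPB were listed at 0 in all 6 libraries. Leukocyte markers summed to 2.02 to 4.53 CPM in wild type and 1.25 to 3.88 CPM in overexpressing libraries, with 4 of 5 under 1 CPM in both groups. The 4 plasmacytoid dendritic cell markers summed to 51.7 to 56.7 CPM in wild type and 57.3 to 63.4 CPM in overexpressing libraries, nearly all of it TCF4, while CLEC4C and LILRA4, which define these cells, were at 0 in all libraries. Of the kidney and HEK293 markers, LHX1 was at 0 in all 6 libraries and the list of 5 summed to 10.3 to 15.8 CPM in wild type and 11.9 to 15.0 CPM in overexpressing libraries.

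Levels are in CPM, counts relative to a library size scaled with TMM. Genes were tested with edgeR's quasi-likelihood test, two-sided, with p-values adjusted by Benjamini and Hochberg over the 16091 genes tested and called under 0.05. A log2 fold change, or log2 difference, is that of MTSS1-overexpressing over wild type libraries, and 3 libraries entered per group. Library titles carry numbers that form 3 neighbouring pairs of 1 wild type and 1 overexpressing library. A second fit took these pairs as a block, and it is quoted where it changes a call. In bulk RNA, fewer cells that express a gene and less RNA per cell cannot be told apart.

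Of the 49 genes, 40 had enough counts to be tested, and 9 did not. Among the 40, 2 rose (SAMD9L and ERAP1), 1 fell (MX1) and 37 did not pass. That is 7.50% of the tested members, beside 4.28% of all tested genes (1.82% higher and 2.45% lower). MX1 passed the filter on low counts only through its wild type libraries. It adds no support to this share or to the other counts that include it. With the block, 5 were higher and 5 lower, or 25%, beside 22.7% of all genes (10.7% higher and 12% lower). DESeq2 called 4 higher and 2 lower, beside 8.49% of all genes, and limma-voom 2 higher and 0 lower, beside 4.11%. Without replicate 1 of both groups, the edgeR test called 0 higher and 0 lower, beside 0.807% of all genes called. At an unadjusted p under 0.05, the edgeR test on all libraries had 9 of the 40 (5 higher and 4 lower), beside 19.8% of all tested genes. Without both replicates 1 it had 5 higher and 5 lower at that level, and the share of all genes was not computed there. The counts by role below are to be read beside these shares. The median log2 fold change of the 40 was -0.02, beside 0.00 for all tested genes, and 19 were positive and 21 negative, where 50.6% of all genes were positive. In size, without sign, the median was 0.17 for the members and 0.18 for all genes. Only MX1 of the 40 differed by 2-fold or more, a size reached by 4.05% of all tested genes.

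**Figure D2:**
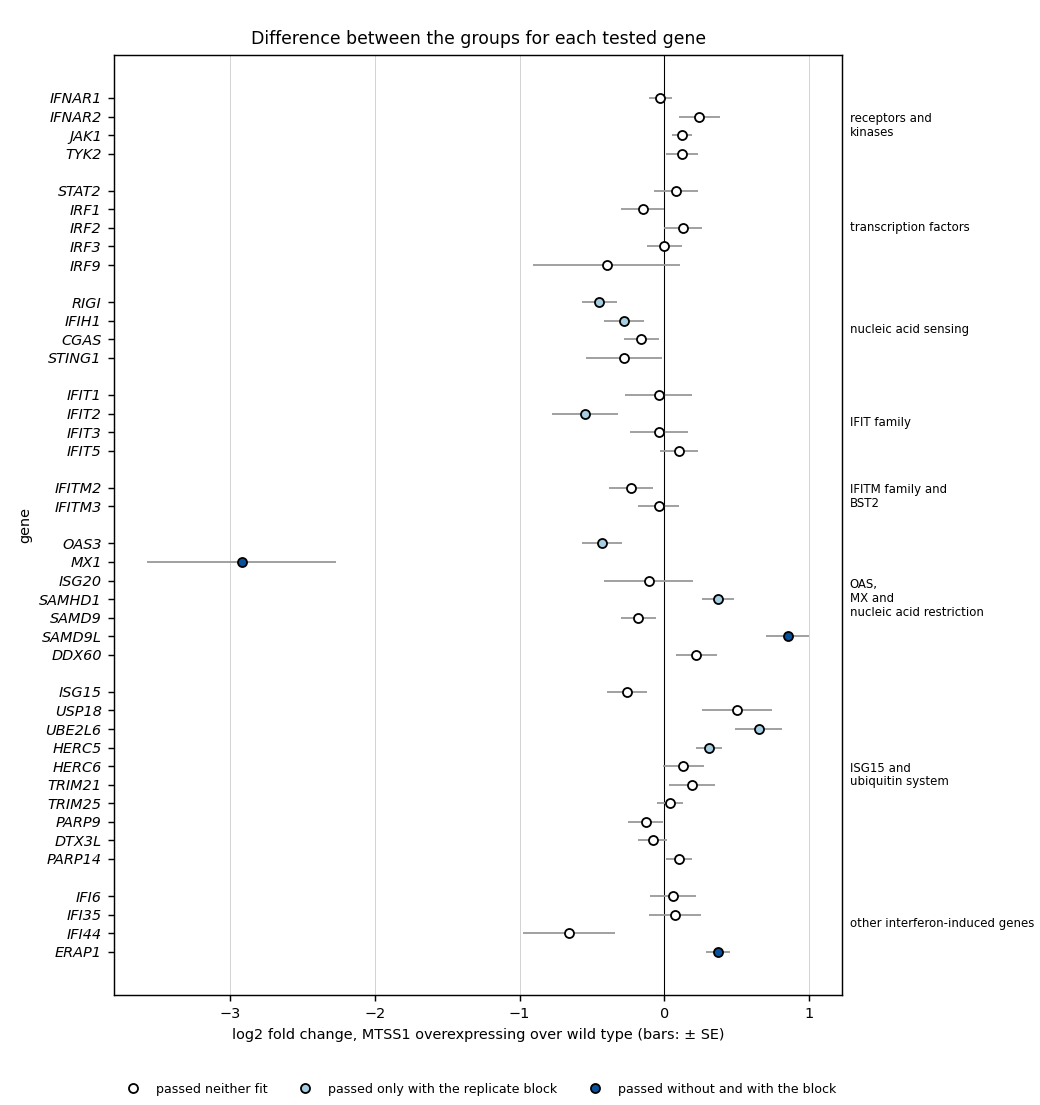
Log2 fold change of MTSS1 overexpressing over wild type cells (x axis; bars, SE; n = 3 libraries per group) for the 40 tested genes, grouped by role. Dark blue points passed the test in both fits (SAMD9L, ERAP1, MX1) and light blue points only with the neighbouring libraries as a block; most other points lie within 0.5 of zero.

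The receptor chains and their kinases were among the abundant members. JAK1 stood at 234, 247 and 237 CPM in wild type and at 261, 251 and 266 CPM in overexpressing libraries. All 3 overexpressing values lay above the wild type values, yet the difference was small (log2 difference 0.12, SE 0.07, edgeR adjusted p = 0.44). TYK2 stood at 133, 122 and 106 CPM and at 143, 134 and 114 CPM, and its groups overlapped (log2 difference 0.12). IFNAR1, the low-affinity chain that binds TYK2, stood at 117, 117 and 133 CPM and at 119, 116 and 124 CPM, again with overlap (log2 difference -0.03). IFNAR2, the chain that binds interferon tightly, averaged 20.8 ± 0.590 and 24.5 ± 4.60 CPM (SD, n = 3). None of the 4 passed edgeR in either fit, and 0 did with DESeq2 or limma-voom or at an unadjusted p under 0.05. Of the exon length of IFNAR2, 44.2% is also annotated to an overlapping gene on the same strand, AP000295.1, and the effect of this on its count was not tested.

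Among the transcription factor genes, STAT2, the subunit of the ISRE-binding complex, stood at 55.6, 75.0 and 57.7 CPM in wild type and at 65.2, 78.6 and 55.4 CPM in overexpressing libraries. Replicate 2 was the highest in both groups, and the groups overlapped (log2 difference 0.08, SE 0.15, edgeR adjusted p = 0.84). IRF3, the factor that sensors activate by phosphorylation, stood at 41.6, 33.4 and 35.4 CPM and at 40.5, 36.0 and 33.7 CPM. The groups overlapped, with a log2 fold change of 0.00 (SE 0.12). IRF1, an inducible activator, averaged 16 ± 2.06 and 14.4 ± 1.73 CPM. IRF2, which competes with IRF1 for the same sites, averaged 22.9 ± 3.37 and 25 ± 1.40 CPM (SD, n = 3). Neither passed. In these 5 tested factor genes edgeR called 0 without and with the block, as did DESeq2 and limma-voom, with 0 at an unadjusted p under 0.05.

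IRF9, the DNA-binding subunit of the ISRE complex, was low. It had 18, 41 and 16 counts in wild type and 10, 29 and 9 counts in overexpressing libraries, and averaged 0.970 ± 0.378 and 0.736 ± 0.377 CPM (SD, n = 3). Its log2 fold change of -0.40 had an SE of 0.51 (edgeR adjusted p = 0.75). Of the exon length of IRF9, 48.4% is also annotated to AL136295.5 on the same strand. The effect of this overlap on its count was not tested either.

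IRF7, the factor that amplifies interferon production, had 5 counts over the wild type libraries and 0 over the overexpressing libraries. This listed value cannot be read as a level, because broadly expressed genes beside it were also near 0. RNH1, a ribonuclease inhibitor, had 19 and 12 counts over the wild type and overexpressing libraries, and PHRF1 had 13 and 28. TALDO1, farther along the chromosome, had 6351 and 5955 counts, so not all genes of the region were near 0. Of the 10 protein-coding genes nearest to IRF7, 5 were at 0 in all libraries. IFI27, a strongly inducible mitochondrial protein gene, was at 0 in all 6 libraries and has the same limit: its neighbour DDX24, a broadly expressed helicase gene, had 2 and 4 counts. These neighbours were chosen after their values were seen.

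All 4 sensing genes had negative log2 fold changes, from -0.45 to -0.16, where 50.6% of all tested genes had positive ones. RIGI (chromosome 9, 32455705 to 32526324, GRCh38), the helicase that detects RNA with a 5′ triphosphate, stood at 32.9, 40.9 and 36.1 CPM in wild type and at 24.2, 26.3 and 29.9 CPM in overexpressing libraries. Every overexpressing value lay below every wild type value. RIGI did not pass the edgeR test (log2 difference -0.45, SE 0.12, edgeR adjusted p = 0.078) and passed with the block (0.0037) and with DESeq2 (DESeq2 adjusted p = 0.024). The 50 nearest tested genes on chromosome 9 had a median of -0.07.

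IFIH1, the helicase MDA5 that detects long double-stranded RNA, stood at 37.9, 46.9 and 52.9 CPM and at 34.0, 42.7 and 36.7 CPM. Its groups overlapped, and it passed only with the block (log2 difference -0.28, SE 0.14, edgeR adjusted p = 0.31; 0.036 with the block). CGAS, the DNA sensor, stood at 65.0, 54.0 and 69.6 CPM and at 61.9, 48.5 and 58.9 CPM, with a log2 fold change of -0.16. In each neighbouring pair the overexpressing library was the lower one. STING1, the adaptor of CGAS, averaged 25.3 ± 6.78 and 20.9 ± 7.23 CPM (SD, n = 3), and its adjusted p with the block was 0.051. Of the 4 RNA and DNA sensing genes, edgeR called 0, with 1 at an unadjusted p under 0.05 (RIGI). DESeq2 called 1, limma-voom 0 and the fit with the block 2. For all tested genes the shares were 19.8% at that unadjusted p, 8.49% with DESeq2 and 22.7% with the block. A group of 4 genes is too small to be read against these shares.

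**Figure D3:**
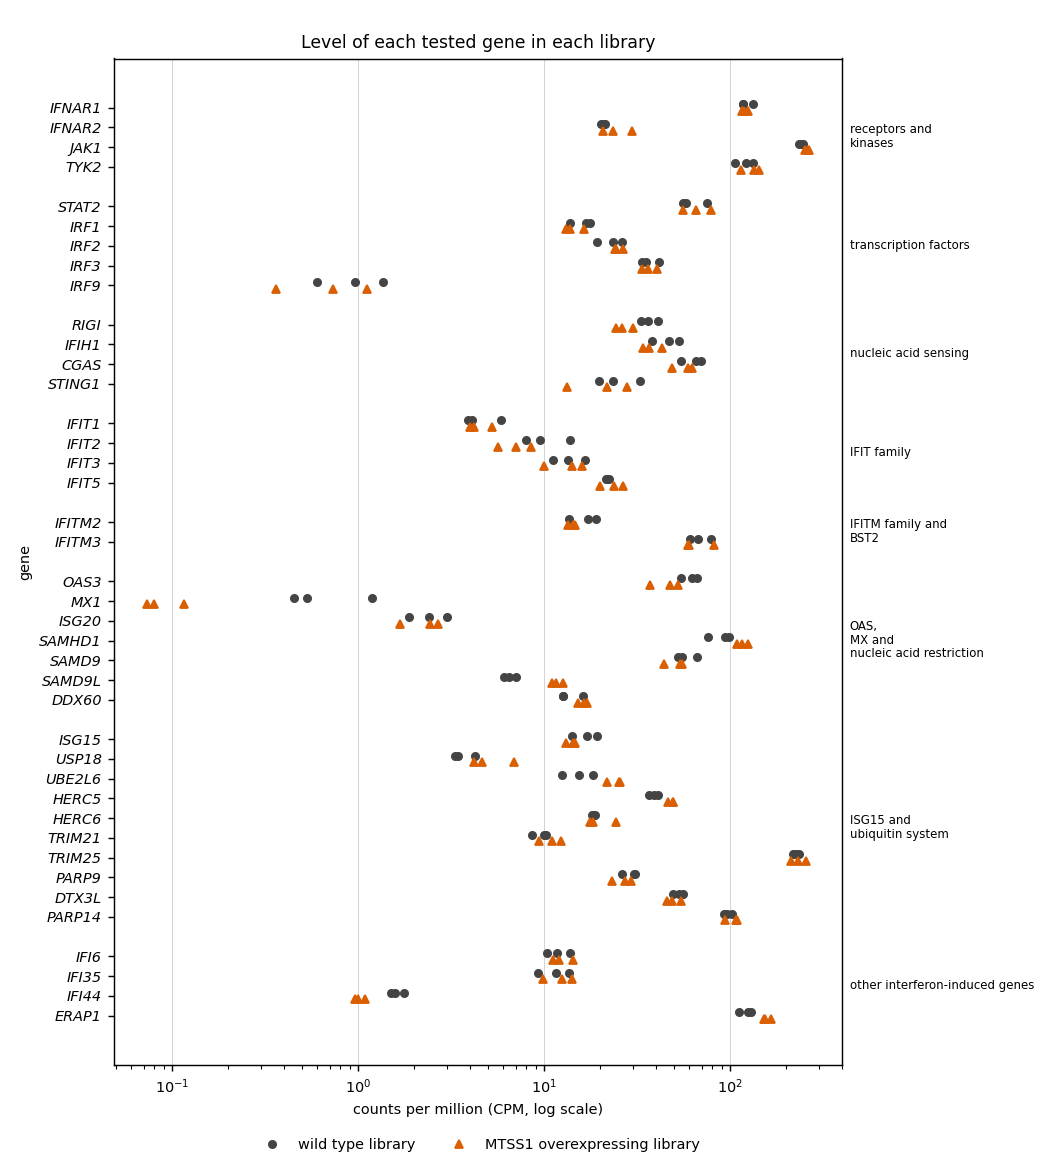
Level of each of the 40 tested genes in CPM (log axis) in the wild type libraries (grey circles) and the MTSS1 overexpressing libraries (orange triangles), 3 each. The groups of most genes overlap; SAMD9L, UBE2L6, HERC5, SAMHD1, ERAP1 and JAK1 lie higher and RIGI, OAS3, MX1 and IFI44 lower in the overexpressing libraries.

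IFIT proteins bind viral RNA that lacks the methylation of host caps. Their 4 genes lie side by side on chromosome 10, and their log2 fold changes ranged from -0.55 to 0.10. IFIT2 (89283694 to 89309276), a member that forms complexes with IFIT1 and IFIT3, stood at 7.95, 13.7 and 9.46 CPM in wild type and at 5.65, 8.49 and 7.0 CPM in overexpressing libraries. The overexpressing value was the lower one in each neighbouring pair, although the groups overlapped. IFIT2 passed only with the block (log2 difference -0.55, SE 0.23, edgeR adjusted p = 0.22; 0.012 with the block).

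IFIT3, which stabilises IFIT1, stood at 11.1, 16.6 and 13.4 CPM and at 9.99, 16 and 14 CPM. IFIT5, which binds RNA without a cap, stood at 22.2, 21.5 and 21.8 CPM and at 20, 23.6 and 26.5 CPM. IFIT1 averaged 4.59 ± 1.07 and 4.47 ± 0.671 CPM (SD, n = 3). These 3 had log2 fold changes between -0.04 and 0.10 and did not pass in either fit. The 50 nearest tested genes of the cluster had a median of 0.00. In all, edgeR called 0 of the 4 genes, with 1 at an unadjusted p under 0.05 and 0 with DESeq2 or limma-voom. That unadjusted level was reached by 19.8% of all tested genes, and 22.7% were called with the block.

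IFITM proteins block virus entry at membranes. IFITM3 stood at 78.4, 66.7 and 60.9 CPM in wild type and at 82.0, 59.6 and 59.4 CPM in overexpressing libraries. Per kilobase of annotated exon it was the highest of all 49 genes, at 50.9 and 49.7 CPM. IFITM2 stood at 19.0, 17.2 and 13.6 CPM and at 14.7, 14.3 and 13.4 CPM. Both groups overlapped in both genes (log2 differences -0.04 and -0.23; edgeR called 0 of 2 in each fit, with 0 at an unadjusted p under 0.05 and 0 with DESeq2 or limma-voom). IFITM1 had 3 counts over the wild type and 2 over the overexpressing libraries. The 3 genes are near-identical in parts, and IFITM1 shares 32.5% of its exon length with IFITM2, and how reads were split between them is uncertain. BST2, the tetherin that holds budding virions at the cell surface, had 10, 10 and 12 counts and 2, 9 and 1 counts, too few to be tested.

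Among the restriction factor genes, SAMD9L (ENSG00000177409, chromosome 7, 93130055 to 93148369), which curbs translation in infected cells, stood at 7.0, 6.09 and 6.46 CPM in wild type and at 11.5, 11 and 12.6 CPM in overexpressing libraries. All overexpressing values lay above all wild type values, by 1.80-fold on average (log2 difference 0.85, SE 0.15, edgeR adjusted p = 0.015; 9.8e-04 with the block). Without wild type replicate 3 or MTSS1 overexpressing replicate 3 the call was lost (highest edgeR adjusted p 0.071). Its 50 nearest tested genes had a median of 0.17, and set against them SAMD9L stood 0.68 higher on the log2 scale, at the edge of the threshold (edgeR adjusted p = 0.04998). Here and below, p-values against neighbours take their median as a fixed value and leave out its error.

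SAMD9, the paralog beside it (93099513 to 93118023), stood at 54.7, 52.5 and 66.1 CPM and at 44.0, 55.3 and 53.4 CPM. Its groups overlapped (log2 difference -0.18, SE 0.12, edgeR adjusted p = 0.48). Its neighbours had a median of 0.18, and against them its log2 fold change was -0.36 (edgeR adjusted p = 0.21; 0.014 with block and neighbours). The neighbouring paralogs therefore had log2 fold changes of opposite sign, and the difference between them was not tested.

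MX1 (ENSG00000157601, chromosome 21, 41420304 to 41459214), a dynamin-like GTPase that traps viral nucleocapsids, had 10, 36 and 12 counts in wild type and 1, 3 and 2 counts in overexpressing libraries. In CPM these were 0.530, 1.19 and 0.450 against 0.0734, 0.115 and 0.0800. The groups did not overlap, and wild type replicate 2 was the highest library. Its level was 7.59-fold lower in overexpressing cells (log2 difference -2.92, SE 0.65, edgeR adjusted p = 0.039; 0.0069 with the block). MX1 passed the filter on low counts only through its wild type libraries. A gene at the overexpressing level of MX1 in both groups would not have been tested. The call of MX1 therefore adds no support to the count of members called. With a filter of at least 1 CPM in 3 libraries, which leaves MX1 out, edgeR called 3 members higher and 0 lower, beside 5.05% of all genes. At an unadjusted p under 0.05 that fit had 5 members higher and 3 lower of 38, and the share of all genes was not computed for it. The call of MX1 was lost whenever any 1 of the 6 libraries was left out (edgeR adjusted p 0.074 to 0.14) and with limma-voom (adjusted p = 0.057), and DESeq2 gave no adjusted p. MX2, its paralog, had 3 and 4 counts over the groups.

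OAS enzymes make the second messenger that activates RNase L. OAS3 (chromosome 12, 112938352 to 112973249) stood at 66.4, 54.0 and 62.6 CPM in wild type and 52.3, 36.8 and 47.4 CPM in overexpressing libraries. The groups did not overlap, and the lowest library was overexpressing replicate 2. OAS3 passed with the block and with DESeq2 and not in the edgeR test without it (log2 difference -0.43, SE 0.14, edgeR adjusted p = 0.12; 9.3e-04 with the block; DESeq2 adjusted p = 0.048). OAS1, beside it on the chromosome, had 5 and 3 counts over the groups, OAS2 had 19 and 8, and OASL, a relative without enzyme activity, had 22 and 27. They were not tested. Broadly expressed genes were near 0 elsewhere too, such as B2M with 34 and 23 counts over the groups, so these low counts are listed values and not a measure of absence.

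SAMHD1 (chromosome 20, 36889773 to 36951901), which cleaves the nucleotides that viruses need, stood at 94.1, 75.4 and 98.7 CPM and at 124, 108 and 115 CPM. All overexpressing values were above the wild type ones. SAMHD1 passed with the block and with DESeq2 and not in the edgeR test without the block (log2 difference 0.37, SE 0.11, edgeR adjusted p = 0.096, 0.0016 with the block, DESeq2 adjusted p = 0.033). The exonuclease gene ISG20 averaged 2.42 ± 0.577 and 2.26 ± 0.523 CPM. Its neighbours on chromosome 15 had a median of -0.36, and ISG20 stood at 0.25 against them (edgeR adjusted p = 0.79). DDX60, a helicase gene, averaged 13.8 ± 2.07 and 16.1 ± 0.893 CPM (SD, n = 3; edgeR adjusted p = 0.46).

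ISG15 is a ubiquitin-like protein that UBE2L6 and HERC5 attach to targets and USP18 removes. ISG15 itself stood at 19.1, 14.1 and 17.0 CPM in wild type and at 14.6, 14.2 and 13 CPM in overexpressing libraries (a log2 difference of -0.26, SE 0.14, edgeR adjusted p = 0.37). The groups overlapped. The conjugating enzyme gene UBE2L6 (chromosome 11, 57551656 to 57568284) stood at 15.3, 18.3 and 12.4 CPM and at 25.4, 25.2 and 21.7 CPM. Here every overexpressing library was above every wild type library, and the edgeR adjusted p lay just over the threshold (log2 difference 0.65, SE 0.16, edgeR adjusted p = 0.051; 0.0012 with the block; DESeq2 adjusted p = 0.0043).

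The ligase gene HERC5 (chromosome 4, 88457117 to 88506163) stood at 36.4, 41.1 and 38.9 CPM and at 46.1, 49.4 and 48.9 CPM. These groups did not overlap either. HERC5 passed with the block and not in the edgeR test without it (log2 difference 0.31, SE 0.09, edgeR adjusted p = 0.096, and 0.0055 with the block). With DESeq2 it did not pass (DESeq2 adjusted p = 0.06). HERC6, next to HERC5, averaged 18.3 ± 0.357 and 20 ± 3.66 CPM. USP18, the protease that also restrains the receptor, averaged 3.66 ± 0.511 and 5.21 ± 1.41 CPM (SD, n = 3; edgeR adjusted p = 0.30). In the blocked fit, which called 22.7% of all tested genes, UBE2L6 and HERC5 were called higher. ISG15 and USP18 did not pass in either fit.

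TRIM25, the ligase that ubiquitinates RIGI, stood at 226, 235 and 217 CPM in wild type and at 231, 255 and 213 CPM in overexpressing libraries (a log2 difference of 0.04). TRIM21, an antibody receptor in the cytosol, averaged 9.58 ± 0.909 and 10.9 ± 1.51 CPM. PARP14, an ADP-ribosyltransferase gene, stood at 95.4, 92.5 and 102 CPM and at 94.1, 109 and 107 CPM. Its neighbours PARP9 and DTX3L, whose products work as a pair and whose genes share a promoter region, averaged 29 ± 2.58 and 26.5 ± 3.01 CPM and 52.4 ± 3.32 and 49.5 ± 4.29 CPM. None of these 5 passed. Of the 10 genes of the ISG15 and ubiquitin group, edgeR called 0, with 2 higher at an unadjusted p under 0.05, 1 higher with DESeq2, 0 with limma-voom and 2 higher with the block. For all tested genes the shares were 19.8% at that unadjusted p, 8.49% with DESeq2 and 22.7% with the block.

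ERAP1 (ENSG00000164307, chromosome 5, 96760810 to 96808100), which trims peptides for antigen presentation, was the other gene called higher. It stood at 112, 129 and 124 CPM in wild type and at 152, 153 and 165 CPM in overexpressing libraries. The groups did not overlap (1.29-fold higher; log2 difference 0.37, SE 0.08, edgeR adjusted p = 0.042; 8.9e-04 with the block). The call was lost in each of the 6 fits without 1 library (edgeR adjusted p 0.064 to 0.14). Against its neighbours, whose median was 0.11, the log2 fold change was 0.26 (edgeR adjusted p = 0.18).

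IFI6, an inhibitor of apoptosis at mitochondria, stood at 11.7, 13.8 and 10.3 CPM and at 12, 14.3 and 11.1 CPM, highest in replicate 2 of both groups. IFI35 averaged 11.5 ± 2.13 and 12.1 ± 2.08 CPM (SD, n = 3) and did not pass. IFI44 had 33, 45 and 42 counts and 13, 26 and 27 counts. Its CPM values did not overlap between the groups, and its log2 fold change of -0.66 (SE 0.32) did not pass (edgeR adjusted p = 0.30; 0.19 with the block). IFI44L, its paralog, had 7 counts over the wild type libraries, all in replicate 2, and 8 over the overexpressing libraries.

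Counted over all roles, 10 of the 40 tested genes (25%) had CPM values that did not overlap between the groups, 6 higher and 4 lower. The same held for 25.5% of all tested genes (12.1% higher and 13.5% lower). The higher ones were JAK1, SAMHD1, SAMD9L, UBE2L6, HERC5 and ERAP1, and the lower ones were RIGI, OAS3, MX1 and IFI44. MX1 adds no support to this count, for the reason given above.

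Replicate 2 was the highest library in both groups for 12 of the 40 genes (30.0%), against 18.7% of all tested genes. These were STAT2, IRF9, STING1, IFIT2, IFIT3, MX1, ISG20, HERC5, HERC6, TRIM25, IFI6 and IFI35. For replicate 1 the count was 7 (17.5%, against 18.1%) and for replicate 3 it was 4 (10.0%, against 17.9%). The labels name no difference between replicates.

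**Figure D4:**
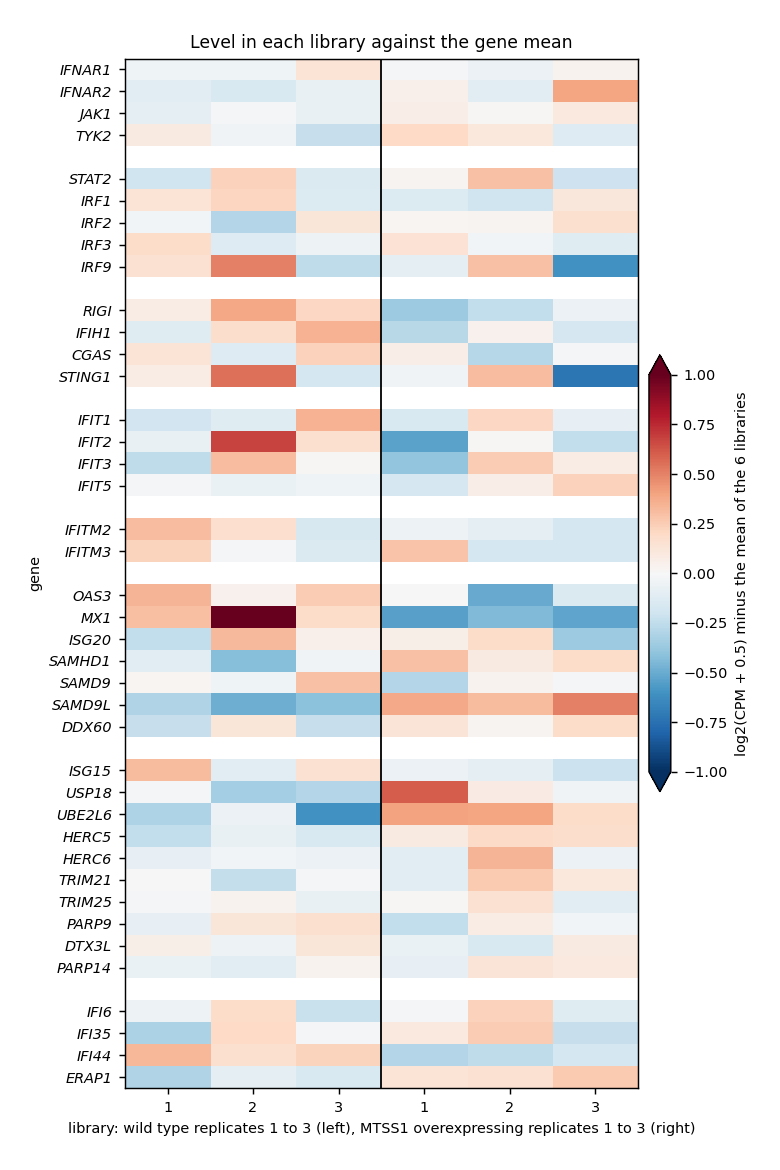
Level of each tested gene in each library as log2(CPM + 0.5) minus the mean over the 6 libraries (colour, clipped at 1; replicate numbers on the x axis, wild type left of the line). STAT2, IRF9, STING1, IFIT3, IFI6 and IFI35 are highest in replicate 2 of both groups, while SAMD9L and UBE2L6 separate the groups in all libraries.

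Per kilobase of annotated exon the order of the levels was led by IFITM3, JAK1, TRIM25 and IFNAR1 in wild type cells, at 50.9, 37.9, 23.8 and 19.4 CPM per kilobase. ISG15 followed at 17.8 and TYK2 at 17.7. At the other end IFITM1, OAS1, OAS2, MX2 and IFI44L were all listed under 0.05 CPM per kilobase in both groups. IRF7 and IFI27 are left out of this order for the reason given above. SAMD9L stood at 0.913 and 1.64 CPM per kilobase, and SAMD9 at 8.43 and 7.43.

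Genes with ISRE letters and genes without them were set side by side as a description. Of the tested genes, 16 held the letters and had a median log2 fold change of -0.07, with 5 positive and 11 negative. Another 16 had a promoter entry without the letters and a median of 0.10, with 11 positive and 5 negative. In the fit with the block, 22.7% of all tested genes were called. Of the 16 with the letters, 1 was called higher (HERC5) and 3 lower (IFIH1, OAS3 and MX1). MX1 adds no support here, since it passed the filter on low counts only through its wild type libraries. Of the 16 without, 4 were called higher (SAMD9L, SAMHD1, UBE2L6 and ERAP1) and 1 lower (RIGI). RIGI counts as without, although its window holds GAAA repeats spaced more closely than the letters searched. DTX3L also counts as without, although the ISRE letters counted for PARP9 run across the DTX3L start site. The SAMD9L window holds letters that differ from those searched only in their first base. Counts this small are not read as a difference between the sets. Without MTSS1 overexpressing replicate 2 the medians were -0.19 and -0.01. The difference between the sets was not tested, and the other 8 tested genes have no promoter entry.

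Each gene was also set against the median of the 50 tested genes nearest to it on its chromosome. That median came from the same libraries and was taken as fixed, so the p-values leave out its error. The neighbours' medians lay between -0.36 (ISG20) and 0.25 (IRF9). In that fit 1 member was higher (SAMD9L) and 0 were lower, beside 2.05% of all genes called. At an unadjusted p under 0.05 the fit had 5 members higher and 7 lower of 40. The share of all genes at that level was not computed for this fit. In the edgeR test without block and neighbours that share was 19.8%. With block and neighbours together 5 were higher and 6 lower, beside 15.2% of all genes; SAMD9 was the one called lower there and not with the block alone. The log2 fold changes of UBE2L6, SAMHD1, OAS3 and IFIT2 were 0.64, 0.40, -0.47 and -0.55 against their neighbours, within 0.05 of those without. Others moved more: HERC5 went from 0.31 to 0.22 (edgeR adjusted p = 0.29), RIGI from -0.45 to -0.38 (0.18) and SAMD9 from -0.18 to -0.36 (0.21).

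**Figure D5:**
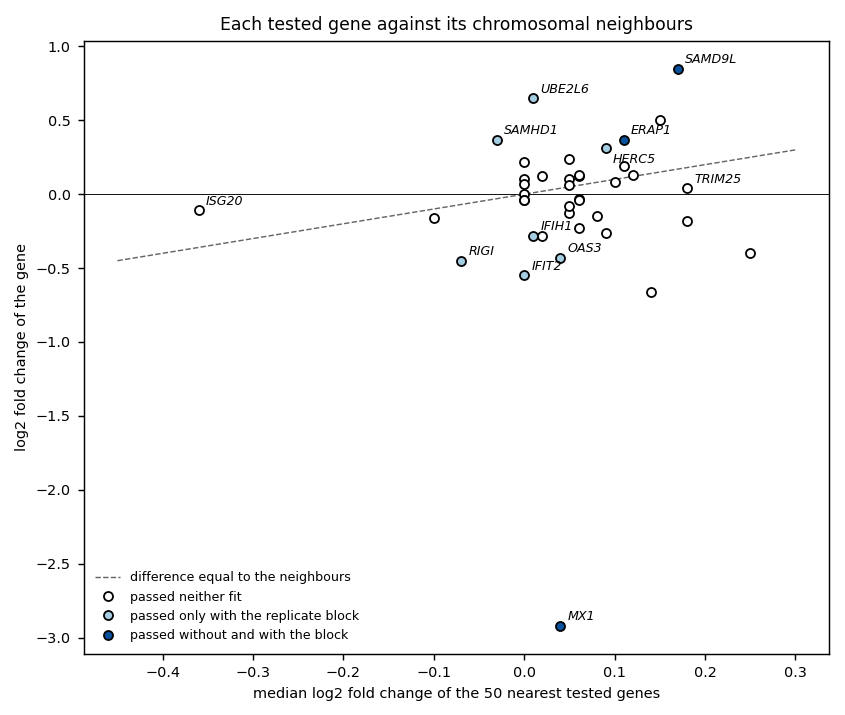
Log2 fold change of each tested gene (y axis) against the median of its 50 nearest tested genes on the chromosome (x axis). The dashed line marks equal values; SAMD9L and UBE2L6 lie far above it and MX1 far below, while ISG20 lies at -0.11 among neighbours at -0.36.

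The rest of the pathway was read from 129 further genes, of which 76 could be tested. Of these, 2 rose, 2 fell and 72 did not pass (7 higher and 15 lower with the block). That is 5.26% of the 76, beside 4.28% of all tested genes. With the block it is 28.9%, with 9.21% higher and 19.7% lower, beside 22.7% of all genes, with 10.7% higher and 12% lower. LAMP3, a lysosomal membrane protein gene, stood at 7.58, 7.71 and 8.97 CPM in wild type and at 13.3, 16.9 and 13.6 CPM in overexpressing libraries (a log2 difference of 0.85, SE 0.15, edgeR adjusted p = 0.018). RNF213, a large ubiquitin ligase gene, rose from 238, 213 and 212 CPM to 311, 277 and 297 CPM (0.42 on the log2 scale, SE 0.08, edgeR adjusted p = 0.029). IFI16, a DNA sensor gene, stood at 2.33, 2.55 and 2.18 CPM and fell to 0.441, 0.653 and 0.720 CPM (-1.92 on the log2 scale, SE 0.33, edgeR adjusted p = 0.016). PML, the scaffold of nuclear bodies, fell from 92.9, 75.4 and 70.9 CPM to 63.2, 49.3 and 50.4 CPM (-0.56 on the log2 scale, SE 0.13, edgeR adjusted p = 0.047).

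Each of these 4 calls was lost in 5 of the 6 fits without 1 library. LAMP3 and PML still passed without MTSS1 overexpressing replicate 1, and RNF213 and IFI16 without wild type replicate 1. The highest edgeR adjusted p was 0.062 for LAMP3, 0.12 for RNF213, 0.064 for IFI16 and 0.16 for PML. The median of the neighbours was -0.31 for PML and -0.39 for IFI16. Against them their log2 fold changes were -0.25 and -1.53 (edgeR adjusted p = 0.42 and 0.052).

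Interferon ligand genes gave almost no reads. Of 21 ligand genes, 20 were listed at 0 in all libraries, IFNB1 and the IFNA genes among them. A count of 0 allows up to 0.216 CPM in the shallowest library (3 counts, counting error only), and the IFNA genes are near-identical copies whose reads counting may not assign. The epithelial gene IFNE was the exception. It was tested and did not pass. Among all tested genes, 19.8% reached an unadjusted edgeR p under 0.05, 8.49% were called with DESeq2 and 22.7% with the block. Of the 10 tested inhibitor genes, SOCS and PIAS genes among them, edgeR called 0, with 1 at an unadjusted p under 0.05, 1 with DESeq2 and 1 lower with the block. That gene was PIAS1, whose neighbours had a median of -0.24. Against them its log2 fold change went from -0.39 to -0.15 (edgeR adjusted p = 0.55; 0.14 with block and neighbours).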

How the data were processed

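Poly(A) RNA of 6 libraries was sequenced as single reads from a directional kit, per the labels' protocols. The authors deposited raw read counts per Ensembl gene. Per the submitters' processing notes, bcl2fastq, HISAT2 2.1.0, HTSeq and GRCh38 were used. For annotation release and strand setting, nothing is given in the sources used here; overlapping and antisense genes cannot be separated. Coordinates and exon lengths came from GENCODE on GRCh38 and promoter sequences from RefSeq.

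Counts were scaled with TMM, filtered with filterByExpr and tested with edgeR 4.0.16 (R 4.3.3). The test was checked on simulated counts. DESeq2 1.42.0, limma-voom (limma 3.58.1), other scalings and filters, the block, the neighbour offset and leaving out each library were alternatives. Leaving out both replicates 1, and block with offset together, were added after seeing the data.

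Neighbouring title numbers gave the pairs of the block. The libraries' deviations from the group means correlated at 0.66, 0.34 and 0.38 within pairs and between -0.4 and 0.1 across them, while the labels name no shared batch. Members, lists and tests were chosen with earlier results of these data known. Values per library were given for members called in either fit and for the 2 most abundant of each role. Further members with values per library, and the neighbour genes of IRF7 and IFI27, were chosen after their values were seen. B2M was named after its values were seen.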

Additional observations from a re-analysis of the deposited data

How the results depend on the processing

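The number of genes called (688) was 1260 with DESeq2, 1489 with no filter on low counts, 3651 with the replicate block, 330 with the neighbour offset, 2452 with block and offset, 132 without replicate 1 of both groups, and 145 to 346 without 1 library. Listed genes called higher (2) numbered 4 with DESeq2, 4 with no filter, 5 with the block, 1 with the offset, 5 with block and offset, 0 without both replicates 1 and 0 to 2 without 1 library. Those called lower (1) numbered 2 with DESeq2, 0 with limma-voom, 3 with no filter, 0 with at least 1 CPM in 3 libraries, 5 with the block, 0 with the offset, 6 with block and offset, 0 without both replicates 1 and 0 to 0 without 1 library. Other pathway genes called higher (2) numbered 7 with the block, 1 with the offset, 8 with block and offset, 0 without both replicates 1 and 0 to 1 without 1 library. Those called lower (2) numbered 7 with DESeq2, 7 with no filter, 15 with the block, 0 with the offset, 10 with block and offset, 0 without both replicates 1 and 0 to 1 without 1 library.

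Without 1 library, the median log2 fold change ranged from -0.19 to -0.03 for genes with ISRE letters and from -0.01 to 0.19 for those without, both lowest without MTSS1 overexpressing replicate 2. Of 701 values of single genes under the alternatives, 595 kept direction and call, 47 lost the call, 27 gained it and 32, of 11 genes, changed sign. None of the 11 exceeded 0.13 in size. With the neighbour offset STAT2 was -0.02, ISG20 0.25 and TRIM25 -0.14. With block and offset STAT2 was -0.02, IRF3 0.0, ISG20 0.23 and TRIM25 -0.14. IRF3 was 0.01 with upper quartile scaling, and without both replicates 1 it was 0.02 and IFI35 -0.08. Leaving out 1 library gave ranges that crossed 0: IFNAR1 -0.07 to 0.03, STAT2 -0.06 to 0.23, IRF3 -0.07 to 0.09, IFIT1 -0.16 to 0.17, IFIT3 -0.19 to 0.13, IFITM3 -0.2 to 0.07, ISG20 -0.26 to 0.08, HERC6 -0.02 to 0.22, TRIM25 -0.02 to 0.11, IFI6 -0.05 to 0.18 and IFI35 -0.06 to 0.21. The cause of these changes was not tested, except that leaving out libraries leaves fewer samples.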
